A study of Mus musculus with 32 samples.

Results

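The genes described here are 10 immediate-early genes. They are the Fos family (*Fos*, *Fosb*, *Fosl1* and *Fosl2*), the Jun family (*Jun*, *Junb* and *Jund*), and *Egr1*, *Ier2* and *Nr4a1*. They were chosen by symbol, with earlier results of these data known, and all 10 were present among the 31053 genes of the deposited matrices. The cells were bone marrow stromal cells differentiated towards osteoblasts in culture (BMSC-OBs), grown from 77 Diversity Outbred (DO) mice, a genetically diverse outbred stock. Cells from 4 or 5 mice were combined into each of 16 pools, numbered 1 to 14, 17 and 18, and each pool was loaded as a separate droplet library and sequenced in 2 runs, of which the first is used here. All pools received the same osteogenic medium with ascorbic acid, beta-glycerophosphate and dexamethasone, and all cells were released from mineralizing cultures with EDTA, collagenase and trypsin before capture. There was no untreated culture and no sample taken without this release, so transcripts present in the dish and transcripts made during release cannot be told apart. A pool mixes mice, cultures and a library, and the cells were not assigned to single mice here, so every comparison was made over pools.

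Immediate-early genes are transcribed within minutes of a growth factor, calcium, mechanical or stress signal, without new protein synthesis, from promoters that hold bound factors in resting cells. Fos and Jun proteins pair through leucine zippers to form the transcription factor AP-1, in which Jun proteins can also pair with each other and Fos proteins need a Jun partner. In bone, Fos is required for osteoclast formation, and Fosl1, Fosl2 and a splice form of Fosb affect osteoblasts and bone matrix. Egr1 is a zinc-finger factor, Nr4a1 an orphan nuclear receptor and Ier2 a nuclear protein of the same early response. Enzymatic release of cells from tissue is known to induce many of these genes, which makes them a common concern in single-cell data.

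The positions of 9 of the 10 genes are given in GRCm38, and that of *Egr1* is not given here. In the GENCODE M21 annotation, *Fos* spans chr12:85473890-85477273 on the plus strand, *Fosb* chr7:19302696-19310051 on the minus strand, *Fosl1* chr19:5447547-5455946 on the plus strand and *Fosl2* chr5:32135801-32157842 on the plus strand. *Jun* spans chr4:95049034-95052222 on the minus strand, *Junb* chr8:84974484-84978718 on the minus strand and *Jund* chr8:70698949-70700616 on the plus strand. *Ier2* lies at chr8:84661331-84662852 on the minus strand and *Nr4a1* at chr15:101254269-101274795 on the plus strand. Exons of *Fosl1*, *Jun*, *Junb* and *Jund* overlap a gene on the other strand (*Ccdc85b*, *Junos*, *Prdx2* and *Gm11175*), and whether the counting used strand is not given in the sources used here.

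Promoters are shown for 5 of the genes, because early induction is known to act through short sites close to the start of transcription. Each window is the 200 bases before the RefSeq start in GRCm38.p6, written 5′ to 3′ in the direction of the gene. The windows are chr12:85473690-85473889 for *Fos*, chr7:19310046-19310245 for *Fosb*, chr4:95052223-95052422 for *Jun*, chr8:84978749-84978948 for *Junb* and chr15:101266646-101266845 for *Nr4a1*, the last at a start inside the annotated gene. Capitals mark motif matches on either strand.
*Fos*: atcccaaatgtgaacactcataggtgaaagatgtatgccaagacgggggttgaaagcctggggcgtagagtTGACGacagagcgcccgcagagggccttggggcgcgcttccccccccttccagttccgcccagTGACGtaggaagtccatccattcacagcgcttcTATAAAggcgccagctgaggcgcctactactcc
*Fosb*: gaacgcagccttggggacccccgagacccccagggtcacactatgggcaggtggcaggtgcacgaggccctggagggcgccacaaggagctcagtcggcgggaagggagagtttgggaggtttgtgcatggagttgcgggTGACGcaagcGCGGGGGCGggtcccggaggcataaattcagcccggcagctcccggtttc
*Jun*: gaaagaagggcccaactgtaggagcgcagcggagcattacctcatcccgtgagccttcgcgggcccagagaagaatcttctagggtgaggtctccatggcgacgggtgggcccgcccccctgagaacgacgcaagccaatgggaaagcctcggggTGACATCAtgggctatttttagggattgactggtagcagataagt
*Junb*: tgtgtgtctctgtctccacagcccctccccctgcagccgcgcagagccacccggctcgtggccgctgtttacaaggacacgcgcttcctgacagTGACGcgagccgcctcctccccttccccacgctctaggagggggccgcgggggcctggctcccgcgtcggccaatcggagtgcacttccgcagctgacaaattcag
*Nr4a1*: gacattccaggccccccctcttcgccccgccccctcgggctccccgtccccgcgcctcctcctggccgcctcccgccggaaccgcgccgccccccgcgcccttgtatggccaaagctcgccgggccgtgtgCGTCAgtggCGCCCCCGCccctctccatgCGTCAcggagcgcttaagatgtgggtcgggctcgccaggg
A set of 6 motifs was searched on both strands in the same 200 bases of all 32851 promoters of the RefSeq table, which holds 7 of the 10 genes. A pattern of the cyclic AMP response element with an open base, TGACNTCA, was found in 6.62% of all promoters and in *Jun*. The *Jun* match reads TGACATCA and lies 45 to 38 bases before the start. The shorter form TGACG, which the longer pattern can contain but TGACATCA does not, was found in 15.7% of all promoters. It was found in 4 of the 7 (*Fos*, *Fosb*, *Junb* and *Nr4a1*). *Fos* held it at 129 to 125 and at 66 to 62 bases before the start, and its TATA box (TATAAA, 9.96% of all promoters) lay 33 to 28 bases before the start. An Egr site, searched as GCGNGGGCG, was found in 4.28% of all promoters and in *Fosb*, *Fosl2* and *Nr4a1*. The AP-1 site TGANTCA (5.48% of all promoters) and the CArG box (1.18%) were not matched in any of the 7 windows. Of these, the *Fosl2* window lies wholly in annotated exons of the gene and the RefSeq starts of *Fosl2*, *Jund* and *Nr4a1* are 671, 1210 and 12577 bases from their GENCODE starts. These are matches of letters in short windows and say nothing of binding. Other forms of these sites, and sites more than 200 bases before the start, were not searched. A motif without a match may therefore still be present in a promoter.

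Cells were assigned to classes by markers that included none of the 10 genes. Of 83906 kept cells, 63508 (75.7%) were assigned, 8647 cells (10.3%) lay within 0.02 of a limit of the gate, and 20398 stayed unassigned. The main classes were 12507 late mesenchymal progenitor (LMP)-like cells, 27450 osteoblast-like cells, 2669 osteocyte-like cells, 7574 marrow adipogenic lineage progenitor (MALP)-like cells and 10192 macrophage-like cells, each with at least 20 cells in all 16 pools. A further 1709 granulocyte-like cells reached 20 cells in 11 pools, and 239 osteoclast-like cells in 2 pools (1 and 2). These 2 pools held 159 of the osteoclast-like cells, 134 of them in 1 pool. The median level of *Col1a1* was 331 UMIs per 10,000 in osteoblast-like cells and 28.7 in LMP-like cells, and that of the leukocyte gene *Tyrobp* was 0 in every stromal class. Molecules were counted by unique molecular identifiers (UMIs), and a level below is the sum of a gene's UMIs over the cells of a class in a pool, per 10,000 UMIs of that class. Pools had 53990642 to 100777353 UMIs in total and median depths of 2670 to 14661.5 UMIs per cell, and the class medians ran from 3460 in granulocyte-like to 16335 in LMP-like cells. Free stromal RNA was measured in the leukocyte classes, where *Col1a1* and *Col1a2* together stood at 1.34 to 6.51% of their osteoblast-like level in macrophage-like cells and at 1.14 to 7.28% in granulocyte-like cells.

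*Fos*, whose product is the founding AP-1 subunit, was highest in osteocyte-like cells and low in leukocytes. Its level was 8.97 ± 1.56 UMIs per 10,000 in osteocyte-like cells (SD, n = 16 pools), with a lowest pool of 6.67, a median of 8.86 and a highest pool of 12.8. In osteoblast-like cells it was 7.42 ± 0.973 (SD, n = 16; lowest 6.25, median 7.43, highest 9.68), and in MALP-like cells 6.50 ± 1.58 (n = 16; lowest 3.44, median 6.73, highest 9.12). LMP-like cells had 4.34 ± 0.989 (n = 16; lowest 2.16, median 4.63, highest 5.47), macrophage-like cells 1.74 ± 0.426 (n = 16) and granulocyte-like cells 0.578 ± 0.322 (n = 11). All osteoblast-like pools stood above all LMP-like pools, whereas the osteocyte-like and osteoblast-like ranges overlapped and osteocyte-like cells were higher in 14 of 16 pools. The part of free stromal RNA in the low leukocyte levels of this and the other members was not tested.

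*Fosb*, a Fos protein that is induced more slowly and can last longer, was also highest in osteocyte-like cells, and stood at about the same level in LMP-like and macrophage-like cells. It stood at 2.25 ± 0.597 UMIs per 10,000 in osteocyte-like, 2.02 ± 0.871 in MALP-like and 1.85 ± 0.409 in osteoblast-like cells (SD, n = 16 pools each). These neighbours in the order did not separate, with osteocyte-like above MALP-like in 9 of 16 pools and MALP-like above osteoblast-like in 8 of 16. The fitted changes given below, on another scaling, put osteoblast-like above MALP-like cells. There *Fosb* rose over LMP-like cells by 1.21 and 0.65 on the log2 scale. In LMP-like cells it was 1.04 ± 0.305 and in macrophage-like cells 1.04 ± 0.208 (n = 16 each), and in granulocyte-like cells 0.170 ± 0.135 (n = 11). Among LMP-like pools the lowest was pool 2 at 0.4932 and the highest pool 5 at 1.46, and pool 2 was also lowest in osteoblast-like and MALP-like cells.

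*Fosl1*, which encodes Fra-1, was found mainly in LMP-like and MALP-like cells. It reached 0.411 ± 0.0845 UMIs per 10,000 in LMP-like cells (SD, n = 16; lowest 0.293, median 0.388, highest 0.581) and 0.296 ± 0.117 in MALP-like cells (n = 16). Osteoblast-like cells had 0.0842 ± 0.0195 and their highest pool, 0.114, stayed below the lowest MALP-like pool, 0.152. Osteocyte-like, macrophage-like and granulocyte-like cells had 0.0524, 0.0460 and 0.0681, and the order among these classes did not hold over pools. These levels rest on few molecules, and a UMI of *Fosl1* was found in 10.9% of LMP-like cells after every cell was thinned to 3000 UMIs.

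*Fosl2*, which encodes Fra-2, had similar levels per 10,000 UMIs in the stromal classes, although the fitted changes given below, on another scaling, put osteoblast-like cells above and MALP-like cells below LMP-like cells. Its level was 1.03 ± 0.209 UMIs per 10,000 in osteocyte-like, 0.991 ± 0.244 in LMP-like, 0.966 ± 0.157 in osteoblast-like and 0.852 ± 0.166 in MALP-like cells (SD, n = 16 pools each), and 0.641 ± 0.145 in macrophage-like cells. LMP-like cells were above osteoblast-like cells in 8 of 16 pools. The osteoclast-like cells stood apart, with 5.09 UMIs per 10,000 in pool 1 and 5.07 in pool 2, against a mean of 0.711 in macrophage-like cells of the same pools. In cells thinned to 3000 UMIs, a UMI of *Fosl2* was found in 73.8% of osteoclast-like cells (mean of pools 1 and 2, 89 cells). It was found in 15.8% of macrophage-like cells (mean of all 16 pools), which are not the same pools.

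Among the 6 classes with 11 or more pools, *Jun* was highest in MALP-like cells. It stood at 4.07 ± 1.01 UMIs per 10,000 in MALP-like cells (SD, n = 16; lowest 1.86, median 4.22, highest 5.16). The other stromal classes had 2.08 ± 0.503 (osteoblast-like), 2.06 ± 0.506 (LMP-like) and 1.93 ± 0.562 (osteocyte-like), and macrophage-like cells 1.75 ± 0.391 (n = 16 each). MALP-like cells were higher than osteoblast-like cells in 16 of 16 pools, although the lowest MALP-like pool, pool 2, lay within the osteoblast-like range. Granulocyte-like cells had 1.41 ± 0.985 (n = 11), with a median of 1.00 and pool 17 at 4.03.

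*Junb*, which encodes a Jun protein needed in the myeloid and osteoblast lineages, was high in macrophage-like and osteocyte-like cells. Macrophage-like cells had 17.1 ± 1.76 UMIs per 10,000 (SD, n = 16; lowest 13.8, median 17.2, highest 20.1) and osteocyte-like cells 16.7 ± 4.54 (n = 16; lowest 9.40, median 16.7, highest 27.5). The spread over pools was wider in osteocyte-like cells, and the order of these classes held in 10 of 16 pools. MALP-like cells followed with 12.9 ± 3.05, osteoblast-like cells with 10.8 ± 1.45 and LMP-like cells with 8.22 ± 1.95 (n = 16 each). The order of MALP-like and osteoblast-like cells depends on the scaling. By the fitted changes given below, *Junb* rose over LMP-like cells by 0.78 in osteoblast-like and by 0.41 in MALP-like cells. Macrophage-like and osteocyte-like cells were not compared directly on that scaling. Granulocyte-like cells had 2.08 ± 0.843 (n = 11), and their highest pool, 3.79, was below the lowest LMP-like pool, 5.60.

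*Jund*, the Jun gene that resting cells express most steadily, increased along the osteogenic classes. Its level was 2.76 ± 0.573 UMIs per 10,000 in LMP-like, 5.35 ± 0.791 in osteoblast-like and 6.29 ± 0.764 in osteocyte-like cells (SD, n = 16 pools each). MALP-like cells had 3.70 ± 0.637 and macrophage-like cells 4.51 ± 0.679 (n = 16 each), and granulocyte-like cells 3.67 ± 0.912 (n = 11). Every osteoblast-like pool (lowest 3.65) lay above every LMP-like pool (highest 3.55). In B-cell-like cells *Jund* stood at 8.90 ± 2.05 UMIs per 10,000 (n = 4 pools), above the mean of any other class.

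*Egr1*, *Ier2* and *Nr4a1* had their highest level per 10,000 UMIs in MALP-like cells, although for *Nr4a1* the order depends on the scaling. *Egr1* stood at 6.03 ± 2.11 UMIs per 10,000 in MALP-like cells (SD, n = 16; lowest 3.54, median 6.23, highest 10.8), at 2.86 ± 0.712 in LMP-like cells and at 1.49 ± 0.222 in osteoblast-like cells, and each step down held in 16 of 16 pools. Osteocyte-like cells had 1.45 ± 0.512 and macrophage-like cells 0.722 ± 0.237 (n = 16 each). *Ier2* stood at 8.49 ± 3.53 in MALP-like cells (n = 16; lowest 4.50, median 7.56, highest 17.5), 4.35 ± 1.12 in osteocyte-like, 3.76 ± 1.54 in LMP-like, 2.74 ± 0.513 in osteoblast-like and 1.47 ± 0.295 in macrophage-like cells. *Nr4a1* stood at 3.04 ± 0.812 in MALP-like cells (n = 16), 2.72 ± 0.843 in osteocyte-like, 1.89 ± 0.331 in osteoblast-like, 1.88 ± 0.453 in LMP-like and 0.720 ± 0.207 in macrophage-like cells. Its MALP-like level was above the osteocyte-like level in 12 of 16 pools with overlapping ranges, and by the fitted changes given below osteocyte-like cells stand above MALP-like cells. Pool 3 held the highest *Ier2* of both MALP-like and LMP-like cells. Unlike *Egr1* and *Nr4a1*, *Ier2* was higher in granulocyte-like cells (2.18 ± 0.367, n = 11) than in macrophage-like cells, in 11 of 11 pools.

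**Figure D1:**
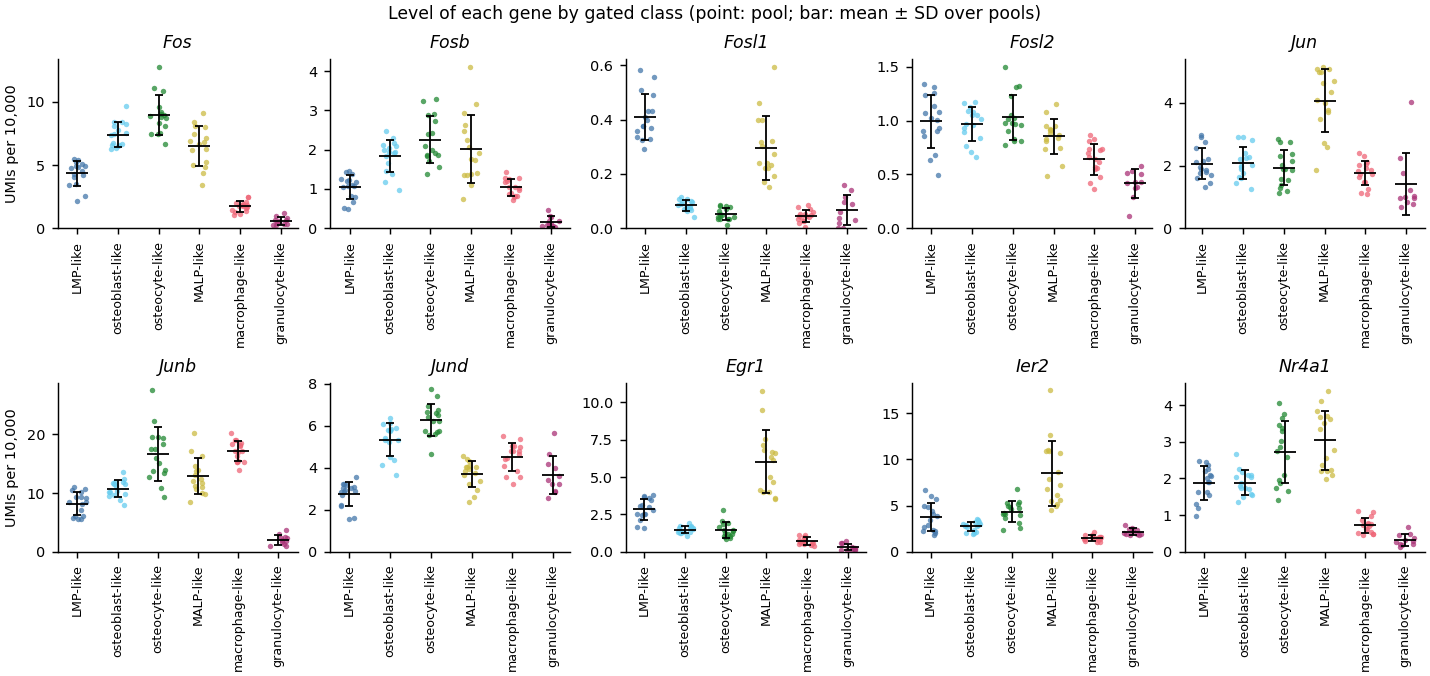
Level of each of the 10 genes, in UMIs per 10,000 UMIs of the class on the vertical axis, in 6 classes on the horizontal axis. Each point is a pool with at least 20 cells of the class and the bars give the mean ± SD over pools; *Jun*, *Egr1*, *Ier2* and *Nr4a1* are highest in MALP-like cells, *Fosl1* in LMP-like cells and *Junb* in macrophage-like and osteocyte-like cells.

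The first comparison asked which members differed between osteoblast-like cells and the LMP-like progenitors of the same pools. UMI sums were compared by the quasi-likelihood test of edgeR in a fit blocked on pool, and p-values were adjusted by the Benjamini-Hochberg method over all genes tested (n = 16 pools). In osteoblast-like cells 7 of 10 members were higher and 2 lower, against 38.6% of 12775 genes called higher and 41.7% called lower. *Jund* rose by a log2 fold change of 1.33 (SE 0.0407, adjusted p = 8.71e-17), *Fosb* by 1.21 (SE 0.0650, adjusted p = 5.21e-13), *Fos* by 1.16 (SE 0.0700, adjusted p = 3.32e-12) and *Junb* by 0.78 (SE 0.0575, adjusted p = 9.61e-11), each in 16 of 16 pools. *Fosl1* fell by 1.94 on the log2 scale (SE 0.0808, adjusted p = 8.77e-15) and *Egr1* fell by 0.54 (SE 0.0688, adjusted p = 3.60e-07), each in 16 of 16 pools. *Jun*, *Nr4a1* and *Fosl2* were called higher at 0.37, 0.39 and 0.35, but their levels per 10,000 UMIs were higher in only 7, 8 and 8 of 16 pools, and with scaling by total counts their log2 fold changes were 0.01, 0.03 and -0.01 and the calls were lost. That scaling moved the median of all genes by -0.36, and it changed *Egr1* to -0.91 and *Junb* to 0.42. It also made *Ier2*, which was not called here (log2 fold change -0.01, adjusted p = 0.959), lower at -0.37.

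Among lists of related genes, the AP-1 and Egr relatives were divided in osteoblast-like cells, with 9 of 22 higher and 8 lower. The stress factor gene *Atf3* rose by 2.01 (adjusted p = 7.46e-13), whereas *Egr4* fell by 2.78 (adjusted p = 3.06e-09) and *Egr2* fell by 1.72 (adjusted p = 6.57e-11). Of 26 other rapidly induced genes, 17 were higher and 5 lower, led by *Ier3* (1.71, adjusted p = 1.14e-13) and *Klf4* (1.37, adjusted p = 1.51e-13). Of 11 heat shock genes, which respond to protein damage, 1 was higher (*Hspa1a*, 0.21, adjusted p = 0.0422, and -0.15 with scaling by total counts) and 8 were lower, with *Hspb1* at -2.86 (adjusted p = 8.76e-14).

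From osteoblast-like to osteocyte-like cells the changes were smaller. Here 6 of 10 members were higher and 2 lower (n = 16 pools), against 28.5% of 11343 genes called higher and 30.4% called lower. *Ier2* rose by 0.56 (SE 0.0775, adjusted p = 9.24e-07) and *Junb* by 0.51 (SE 0.0721, adjusted p = 1.32e-06), each in 16 of 16 pools, and *Nr4a1* by 0.40 (SE 0.0846, adjusted p = 2.75e-04) in 14 of 16. *Fos* rose by 0.19 (adjusted p = 0.00228) and *Jund* by 0.16 (adjusted p = 0.00726), and *Fosl1* fell by 0.74 (SE 0.134, adjusted p = 4.35e-05). *Fosb* (0.20, adjusted p = 0.0312) and *Egr1* (-0.18, adjusted p = 0.0484) were close to the threshold. The call of *Fosb* was lost without any of pools 1, 2, 3, 4, 11, 12, 14 and 18, with adjusted p between 0.0513 and 0.0715, and that of *Egr1* without any of pools 3, 4, 5, 7, 8, 10, 11, 12, 13, 14 and 17, with adjusted p between 0.0518 and 0.157. Without a block for the pool, 5 members were called, and without a filter on low counts the calls of *Fos* (adjusted p = 0.0509), *Fosb* (adjusted p = 0.152) and *Jund* (adjusted p = 0.131) were lost. With scaling by total counts *Egr1* was not called (-0.11, adjusted p = 0.301) and *Jund* stood at 0.24. *Jun* (-0.20, adjusted p = 0.0541) and *Fosl2* (0.01, adjusted p = 0.946) were not called, but *Jun* was called lower without any of pools 1, 2, 13 and 18, without pools 1 and 2 together, with the size factors of DESeq2, without a filter on low counts, in the second run, with doublets kept and at a mitochondrial limit of 5%, with adjusted p between 0.00608 and 0.0491.

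Of 26 other rapidly induced genes, 21 were higher in osteocyte-like cells and 1 was lower. They were led by the phosphatase genes *Dusp6* (1.33, adjusted p = 1.33e-07) and *Dusp5* (1.00, adjusted p = 9.66e-08), and *Myc* fell by 0.34 (adjusted p = 4.94e-04). Among AP-1 and Egr relatives 13 of 21 were higher and 3 lower, with *Batf3* at 3.09 (adjusted p = 1.87e-11) and *Atf3* at 0.99 (adjusted p = 1.07e-11) in front. Heat shock genes went the other way again, with 8 of 11 lower and *Dnajb1* alone higher (0.18, adjusted p = 0.0135).

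In MALP-like cells, the adipogenic branch, all 10 members differed from LMP-like cells, with 8 higher and 2 lower (n = 16 pools), against 36.9% of 11980 genes called higher and 37.1% called lower. *Ier2* rose by 0.94 (SE 0.0687, adjusted p = 7.80e-11), *Egr1* by 0.80 (SE 0.0710, adjusted p = 1.80e-09), *Jun* by 0.72 (SE 0.0580, adjusted p = 3.44e-10) and *Fosb* by 0.65 (SE 0.0872, adjusted p = 9.29e-07), each in 16 of 16 pools. *Nr4a1* rose by 0.44, *Junb* by 0.41, *Fos* by 0.33 and *Jund* by 0.19 (adjusted p between 8.87e-07 and 0.00404). *Fosl1* fell by 0.79 (SE 0.111, adjusted p = 2.02e-06) and *Fosl2* fell by 0.45 (SE 0.0601, adjusted p = 8.98e-07), each in 14 of 16 pools. Scaling by total counts moved the median of all genes by 0.25 and kept the direction of all 10, with *Fosl2* at -0.20, *Fos* at 0.58, *Junb* at 0.66, *Jund* at 0.44 and *Nr4a1* at 0.69. The call of *Jund* was lost without a block for the pool (adjusted p = 0.220).

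Of 21 AP-1 and Egr relatives, 14 were higher and 3 lower, with *Egr3* at 1.30 (adjusted p = 9.03e-14) and *Nab2*, a corepressor of Egr proteins, at -1.07 (adjusted p = 6.87e-11). Of 26 other rapidly induced genes, 18 were higher and 4 lower, with *Trib1* at 2.33 (adjusted p = 5.39e-18), *Dusp5* at 2.24 (adjusted p = 4.06e-16) and *Klf4* at -1.60 (adjusted p = 2.33e-16). Heat shock genes were split, with 4 of 11 higher and 5 lower, and *Dnajb1* rose by 1.05 (adjusted p = 1.07e-12).

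Macrophage-like cells differed from LMP-like cells in 8 of 10 members, with 2 higher and 6 lower (n = 16 pools), against 39.7% of 11876 genes called higher and 46.0% called lower. *Junb* rose by 1.21 (SE 0.0923, adjusted p = 2.66e-11) and *Jund* by 0.85 (SE 0.0555, adjusted p = 1.81e-12), each in 16 of 16 pools. *Fosl1* fell by 3.05 (SE 0.135, adjusted p = 1.07e-15), *Egr1* by 1.88 (SE 0.126, adjusted p = 2.73e-12), *Nr4a1* by 1.26 (SE 0.142, adjusted p = 2.24e-08), *Fos* by 1.20 (SE 0.129, adjusted p = 1.07e-08) and *Ier2* by 1.15 (SE 0.0972, adjusted p = 1.87e-10), each in 16 of 16 pools. *Fosl2* fell by 0.49 (SE 0.126, adjusted p = 9.65e-04). Scaling by total counts moved the median of all genes by -0.13 and changed no member's call. *Fosb* (0.16, 95% interval -0.10 to 0.42, adjusted p = 0.263) and *Jun* (-0.10, interval -0.32 to 0.12, adjusted p = 0.392) were not called. The macrophage-like level of *Egr1* was 12.0% and that of *Fosl1* 11.2% of the highest stromal level. Of 26 other rapidly induced genes 17 were higher, led by *Trib1* (3.52, adjusted p = 2.28e-20) and *Pim1* (3.35, adjusted p = 1.45e-19), and 6 were lower, led by *Cyr61* (-3.99, adjusted p = 1.91e-17). No test compared this list with the members. Of 20 AP-1 and Egr relatives 11 were higher, among them *Batf* (3.94, adjusted p = 1.06e-15), and 6 were lower, and of 11 heat shock genes 9 were lower, led by *Hspb1* (-4.80, adjusted p = 4.51e-20).

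Osteoclast-like cells, which form by fusion of macrophage-lineage cells, could be compared with macrophage-like cells in pools 1 and 2 alone. These pools held 159 osteoclast-like cells, 134 of them in 1 pool. Among the members 2 were higher and 3 lower (n = 2 pools), against 12.9% of 10257 genes called higher and 14.2% called lower. *Fosl2* rose by 2.76 (SE 0.142, adjusted p = 3.31e-17). *Egr1* fell by 1.57 (SE 0.269, adjusted p = 1.77e-05), from a mean of 0.698 to 0.238 UMIs per 10,000, *Fosb* by 1.07 (SE 0.203, adjusted p = 7.50e-05) and *Junb* by 0.82 (SE 0.113, adjusted p = 5.23e-07). With 2 pools these SEs lean on variability estimated over all genes more than on the spread between pools. With DESeq2 the adjusted p was 2.84e-31 for *Fosl2*, 0.0146 for *Egr1*, 0.0352 for *Fosb* and 9.74e-05 for *Junb*. The median mitochondrial share was 6.51% in osteoclast-like and 4.15% in macrophage-like cells of all pools, and its part in these changes was not tested. *Fos* was called higher at 0.58 (adjusted p = 0.00929), with 3.39 UMIs per 10,000 in pool 1 and 2.05 in pool 2, and this call was lost with DESeq2 (adjusted p = 0.393), in the second run (adjusted p = 0.0579), without a block for the pool (adjusted p = 0.0857) and with pools of at least 5 cells (adjusted p = 0.399). With pools of at least 5 cells *Jun* (-0.79), *Jund* (-0.57) and *Ier2* (-0.66) were called lower. *Jdp2*, an AP-1 relative that takes part in osteoclast formation, rose by 2.17 (adjusted p = 4.99e-15), and *Egr2* fell by 4.50 (adjusted p = 8.26e-09). Of 20 relatives tested 2 were higher and 9 lower. Of 26 other rapidly induced genes 1 was higher (*Dusp6*, 1.61, adjusted p = 0.00484) and 17 lower, led by *Nfkbiz* (-3.02, adjusted p = 5.03e-16), and of 11 heat shock genes 4 were higher and 3 lower, led by *Hsph1* (-2.32, adjusted p = 2.51e-08).

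Granulocyte-like cells were compared with macrophage-like cells in 11 pools, and 9 members could be tested. Of these 1 was higher and 5 lower (n = 11 pools), against 33.4% of 7453 genes called higher and 36.8% called lower. *Ier2* rose by 1.10 (SE 0.0865, adjusted p = 7.05e-10) in 11 of 11 pools. *Junb* fell by 2.60 (SE 0.167, adjusted p = 3.29e-11), *Fosb* by 2.00 (SE 0.222, adjusted p = 1.23e-07) and *Fos* by 1.05 (SE 0.182, adjusted p = 3.79e-05), each in 11 of 11 pools. *Egr1* (-0.62, adjusted p = 0.0108) and *Nr4a1* (-0.47, adjusted p = 0.0153) were lower, and both calls were lost without a block for the pool (adjusted p = 0.0826 and 0.0557). With a mitochondrial limit of 5%, *Nr4a1* was not called (adjusted p = 0.110) and *Jund* was called higher at 0.27 (adjusted p = 0.0351). *Jun*, *Fosl2* and *Jund* were not called (log2 fold changes 0.11, 0.04 and 0.20), but with scaling by total counts, which moved the median of all genes by -0.56, they were called lower at -0.44, -0.52 and -0.35. With that scaling *Ier2* stood at 0.55, *Fos* at -1.61, *Egr1* at -1.19 and *Nr4a1* at -1.03, all still called. Of 26 other rapidly induced genes 4 were higher, led by *Cebpd* (2.92, adjusted p = 2.54e-14), and 20 lower, led by *Socs3* (-3.32, adjusted p = 5.31e-11). Of 19 AP-1 and Egr relatives 3 were higher and 12 lower, among them *Egr2* (-3.95, adjusted p = 3.68e-10), and of 10 heat shock genes 2 were higher and 7 lower.

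**Figure D2:**
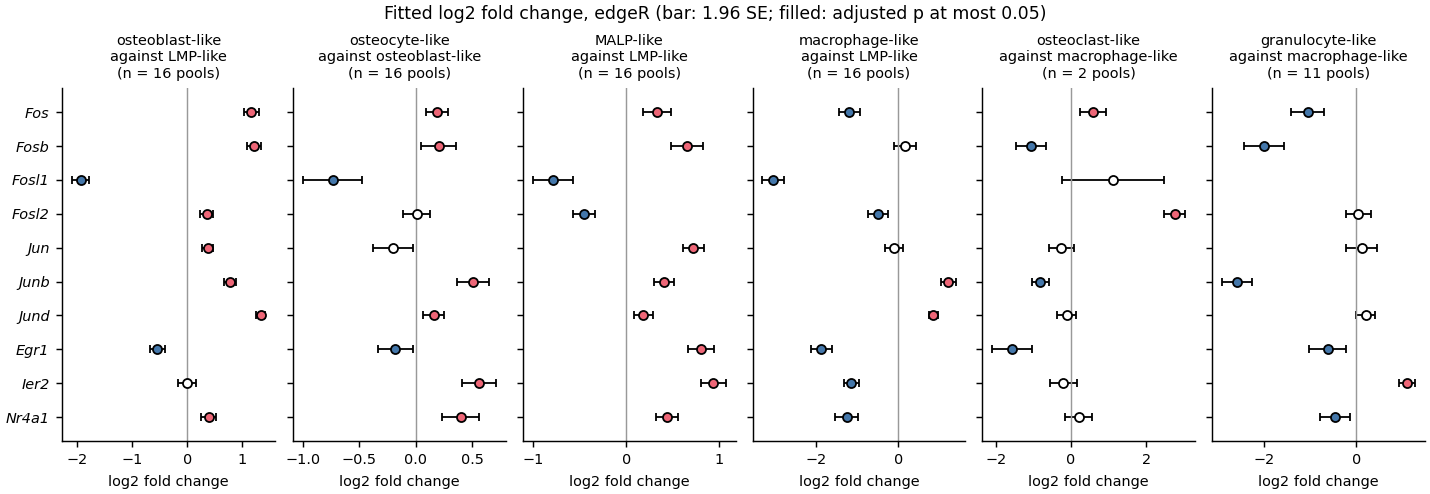
Fitted log2 fold change of each gene (horizontal axis) in the 6 comparisons between classes, with bars for the 95% interval; filled points passed an adjusted p of 0.05, red for higher and blue for lower in the class named first. *Fosl1* lies left of 0 in each of the 4 comparisons with 16 pools, and *Fosl2* reaches 2.76 in osteoclast-like cells.

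The next question was how far each member differed between classes and how far it moved with the pool, on average over the classes. The variance of log2(CPM + 10) over 5 classes and 16 pools was divided into a class share, a pool share and a remainder, for the 10 members and for all 9994 genes with a mean of at least 5 CPM. The pool share is that of the pool means over the 5 classes, and it does not require every class to move. For each of the 10 members the class share was larger than the pool share, which also held for most genes. Over all 9994 genes the lower quartile of the class share was 56.0% and the upper quartile of the pool share 22.8%. *Fosl1* (class 89.98%, pool 3.45%), *Fos* (88.1%, 4.00%) and *Egr1* (86.6%, 5.64%) were set mainly by class, and their class shares exceeded those of 80.5%, 76.6% and 73.2% of all genes. *Fosl2* (class 39.2%, pool 28.9%), *Fosb* (54.4%, 21.3%) and *Jun* (58.0%, 20.5%) had the largest pool shares, above those of 84.1%, 72.2% and 70.5% of all genes. Without pools 1, 2, 17 and 18 the largest pool shares were those of *Junb* (18.1%) and *Fosl2* (17.7%). The median over the members was 75.7% for class and 12.7% for pool, beside medians of 73.6% and 12.1% over all genes. For *Jund*, 71.7% of the variance around the class means lay in the pool means over the 5 classes, a value above 92.0% of all genes. Without pools 1, 2, 17 and 18 this fell to 42.9%, above 35.9% of all genes. In those 12 pools it was below the 60.9% of *Ier2* and the 57.0% of *Egr1*. The pools left out are those lowest in *Jund*, so its fall follows from their choice. Over all 16 pools the corresponding value was 57.3% for *Ier2* and 33.7% for *Fos*, with a median of 48.5% over all genes.

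**Figure D3:**
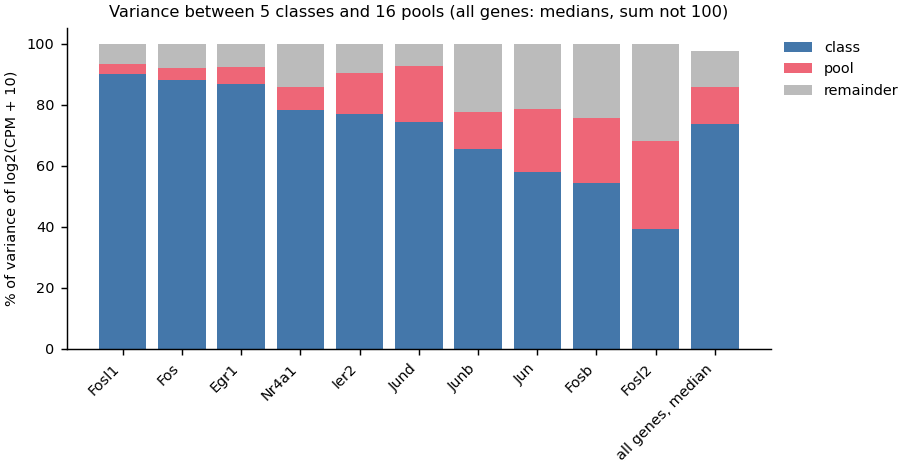
Share of the variance of log2(CPM + 10) between 5 classes (blue), between 16 pools (red) and left over (grey), in percent on the vertical axis, for each gene and, as medians that need not sum to 100, for all 9994 genes. The class share falls from 89.98% for *Fosl1* to 39.2% for *Fosl2*, where the pool share is 28.9%.

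Pools differed in which members they raised or lowered. A pool effect was taken as the deviation from the class mean on that scale, averaged over the 5 classes. Pool 2 was below the mean for 9 of 10 members and pools 1, 17 and 18 for 8 of 10 each, whereas 57.5%, 57.7%, 56.8% and 59.3% of all genes were above it in pools 2, 1, 17 and 18. The lower values included *Fosb* at -0.59 and *Jun* at -0.46 in pool 2 and *Jund* at -0.43 and -0.35 in pools 2 and 1, while *Fosl1* was above the mean in both (0.17 and 0.03 in pools 1 and 2) and *Junb* in pool 1 (0.05). In pools 1 and 2, 0 members stood below the median pool in all 5 classes, beside 9.80% and 10.9% of all genes. Pools 17 and 18 were also low in *Jund*, at -0.33 and -0.22, and without these 4 pools its pool share fell to 3.64%. They are the pools lowest in *Jund*, so the fall follows from their choice and does not tell how *Jund* moves by pool. Pool 5 was above the mean for all 10, beside 39.1% of all genes, but above the median pool in all 5 classes for 1 member, beside 9.13% of all genes. In pool 6, 6 members (*Fos*, *Fosl2*, *Jun*, *Jund*, *Egr1* and *Nr4a1*) stood above the median pool in all 5 classes, *Egr1* furthest at 0.62, while *Junb* stood below it in all 5. In that pool 29.97% of all genes stood above the median in all 5 classes. In pool 4, 5 members (*Fosb*, *Jun*, *Egr1*, *Ier2* and *Nr4a1*) did so, beside 9.86% of all genes, while *Fosl1* stood below it in all 5. In pool 10, 5 members (*Fos*, *Fosb*, *Jun*, *Egr1* and *Nr4a1*) stood below in all 5, beside 8.21% of all genes. *Ier2* was high in pools 3 and 11 (0.54 and 0.46) and low in pools 17 and 2 (-0.51 and -0.41). No pool raised or lowered all 10 members in all 5 classes.

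**Figure D4:**
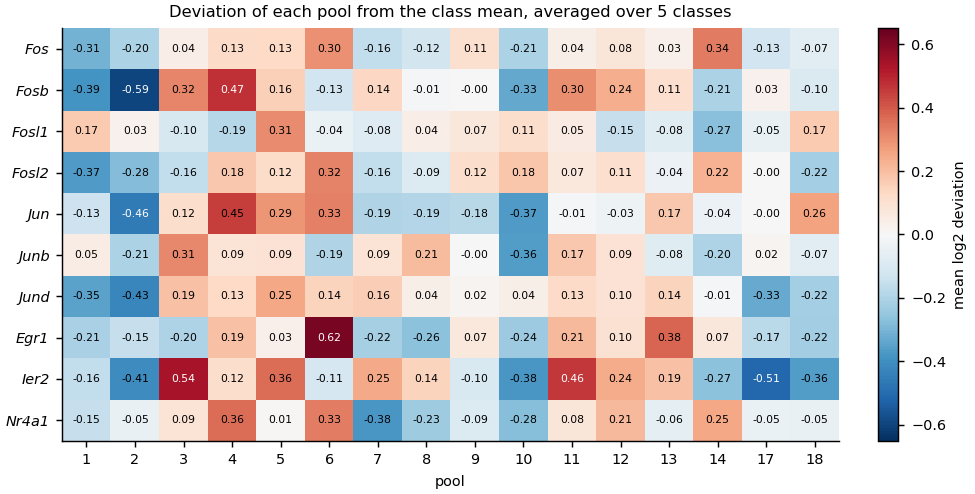
Mean log2 deviation of each pool (columns) from the class mean, averaged over 5 classes, for each gene (rows); red is above and blue below the mean, and the values are printed. Pool 2 is below the mean for 9 of the 10 genes and pools 1, 17 and 18 for 8 each, and pool 6 holds the highest *Egr1* value, 0.62.

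Whether a pool that was high in one class was high in another was then tested over the 16 pools, for LMP-like against osteoblast-like cells and for LMP-like against macrophage-like cells (on log2(CPM + 10), 20 relations, two-sided permutation test with 100000 resamples, adjusted over the 20). Agreement between both stromal classes was common to most genes, with a median r of 0.67 over all 9994 genes and of 0.72 over the 10 members. *Ier2* gave Pearson's r = 0.86 (permutation p = 5e-05, adjusted p = 2.5e-04) and Spearman's rho = 0.85 (permutation p = 9e-05, adjusted p = 0.0018), and r = 0.79 without the 2 pools farthest from the median, 2 and 3. *Jun* gave r = 0.86 (permutation p = 3e-05, adjusted p = 2e-04), rho = 0.77 (permutation p = 8.1e-04, adjusted p = 0.00443) and r = 0.79 without pools 4 and 5. *Fosb* gave r = 0.85 (permutation p = 1.1e-04, adjusted p = 4.4e-04), rho = 0.75 (permutation p = 0.00113, adjusted p = 0.00443) and r = 0.64 without pools 1 and 2. *Junb* gave r = 0.73 (permutation p = 0.00123, adjusted p = 0.00351), rho = 0.75 (permutation p = 0.00133, adjusted p = 0.00443) and r = 0.67 without pools 2 and 14. All 10 members, *Jund* through the clusters described next, had an adjusted p for r below the threshold of 0.05 between these classes, at an r of at least 0.55, which 67.2% of all genes also reached. Without pools 1 and 2 this held for 6 (*Fosb*, *Jun*, *Junb*, *Jund*, *Egr1* and *Ier2*), at an r of at least 0.61, which 50.8% of 9973 genes also reached. *Fos* fell to r = 0.38 (permutation p = 0.181, n = 14) and *Fosl2* to r = 0.43 (permutation p = 0.125, n = 14), and *Fosl1* and *Nr4a1* also lost their calls. Such calls depended on the pools used, and without pool 4 alone 6 members passed as well.

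Between LMP-like and macrophage-like cells 2 members, *Ier2* and *Jund*, had an adjusted p for r below the threshold, and 6.38% of all genes reached the r of *Ier2*. The median r was 0.04 over the members and 0.42 over all genes, whose lower quartile was 0.20. *Ier2* gave r = 0.78 (permutation p = 3.7e-04, adjusted p = 0.00123), rho = 0.75 (permutation p = 0.00131, adjusted p = 0.00443) and r = 0.79 without pools 2 and 3, but within the 12 pools other than 1, 2, 17 and 18 it gave r = 0.60 (permutation p = 0.0394, adjusted p = 0.113). For *Jund* the pools fell into clusters, with pools 1, 2, 17 and 18 between 1.59 and 2.22 UMIs per 10,000 in LMP-like cells and the other 12 between 2.69 and 3.55, so its r over all pools is not given. Within the 12 pools, *Jund* gave r = 0.44 and rho = 0.38 between LMP-like and macrophage-like cells (permutation p = 0.152 for r) and r = 0.36 and rho = 0.38 between LMP-like and osteoblast-like cells (permutation p = 0.244 for r), neither past the threshold. Leaving out its lowest pools narrows the range of *Jund*, so these values cannot tell whether it agrees between classes. *Fosl1* gave r = 0.50 (permutation p = 0.0464, adjusted p = 0.0714) and rho = 0.43 (permutation p = 0.0941, adjusted p = 0.150), and r = 0.64 without pools 1 and 5. Without pools 1 and 2 it gave r = 0.78 (permutation p = 0.00149, adjusted p = 0.00497, n = 14). These values of *Fosl1* rest on few molecules, with 270 UMIs in macrophage-like cells of all 16 pools, beside 7774 of *Ier2*. Its mean level there was 0.0460 UMIs per 10,000, with a lowest pool of 0.0049. The remaining 7 members had r between -0.17 and 0.16, with adjusted p of at least 0.731. Of 30 relations between the pool effects and median depth, mean mitochondrial share or share of unassigned cells, none passed adjustment. The relation with the smallest p was that of *Jun* with the mitochondrial share (r = -0.57, permutation p = 0.0211, adjusted p = 0.632; rho = -0.56, permutation p = 0.0275, adjusted p = 0.825; r = -0.60 without the 2 farthest pools).

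**Figure D5:**
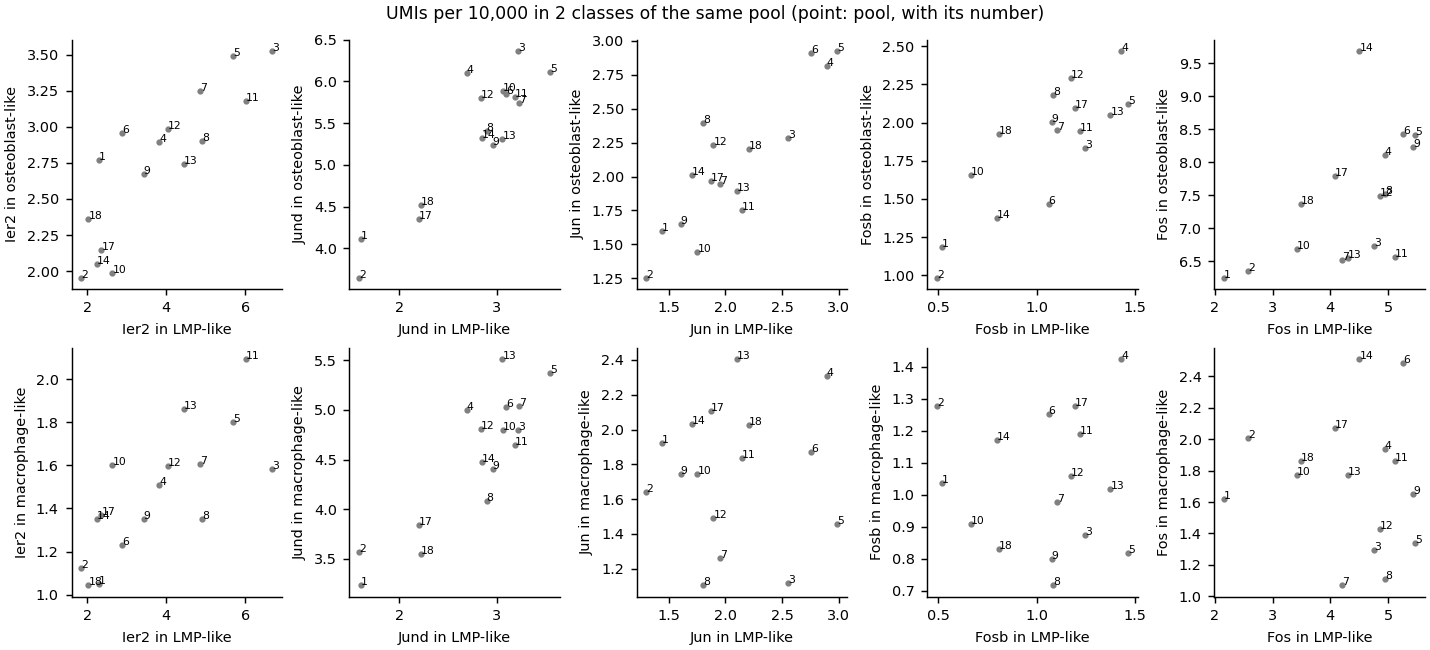
Level of 5 genes in LMP-like cells (horizontal axis, UMIs per 10,000) against osteoblast-like (upper row) and macrophage-like cells (lower row) of the same pool, each point a pool with its number. *Ier2* rises in both rows (r = 0.86 and 0.78), *Jun* and *Fosb* in the upper row (r = 0.86 and 0.85), and the 4 pools at the left of the *Jund* panels are 1, 2, 17 and 18.

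The genes that moved most like the members over the 16 pools of LMP-like cells were looked up among 9994 genes, as a description of values chosen as the highest. The closest were *Cmya5* to *Fos* (r = 0.91), *Gal* to *Fosb* (r = 0.91), *Nfil3* to *Egr1* (r = 0.93) and *Islr* to *Junb* (r = 0.92). *Btg2*, an early-response antiproliferative gene, was also among the 3 closest to *Fos* (r = 0.91), *Fosb* (r = 0.91) and *Egr1* (r = 0.92). *Nr4a1* was closest to its relative *Nr4a3* (r = 0.92) and to *Fos* (r = 0.91), and *Jun* to *Atf3* (r = 0.90) and *Dnajb1* (r = 0.84). *Ier2* and *Junb* shared *Lrpap1* (r = 0.93 and 0.92), *Fosl2* was closest to *Rnf19a* (r = 0.94) and *Fosl1* to *Ms4a8a* (r = 0.89). No likeness is given for *Jund*, whose pools fall into clusters. All genes of a pool were measured in the same library, and depth differed between pools, so such values describe likeness over libraries.

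The share of cells with a UMI of several rapidly induced members was highest in MALP-like cells among the classes examined. Each cell was thinned to 3000 UMIs, which left out 2093 of 12507 LMP-like, 2975 of 10192 macrophage-like and 766 of 1709 granulocyte-like cells, and cells with a UMI of at least 3 of *Fos*, *Fosb*, *Jun*, *Junb*, *Egr1* and *Ier2* were counted. They made up 83.2 ± 6.70% of MALP-like cells (SD, n = 16 pools; lowest 70.6%, median 83.9%, highest 91.0%), and 91.1% without thinning. In LMP-like, osteoblast-like and osteocyte-like cells the shares were close to each other, at 65.1 ± 13.0%, 66.2 ± 8.49% and 66.1 ± 8.69% (n = 16 pools each). Macrophage-like cells had 37.2 ± 7.22% (n = 16) and granulocyte-like cells 11.4 ± 5.94% (n = 10). T-cell-like cells had 8.10 ± 5.44% (n = 3) and B-cell-like cells 11.0 ± 4.83% (n = 4). The range over pools was widest in LMP-like cells, from 39.8 to 81.6%. No test was made between these shares. Such a share depends on the detection of each gene, and whether the genes occurred together more often than their detection implies was not tested.

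The small classes were described only. *Fos* stood at 0.345 ± 0.201 UMIs per 10,000 in T-cell-like cells and 0.288 ± 0.183 in B-cell-like cells (SD, n = 4 pools each). *Junb* stood at 6.77 ± 2.19 in monocyte-like, 5.04 ± 1.21 in T-cell-like and 2.71 ± 1.48 in B-cell-like cells (n = 4 pools each). *Ier2* stood at 1.59 ± 0.818 in monocyte-like and 1.49 ± 0.435 in T-cell-like cells. *Fosl2* was higher in T-cell-like cells (0.687 ± 0.252) than in B-cell-like cells (0.0667 ± 0.0549), and the ranges over pools did not overlap. In glial-like cells, which reached 20 cells in pool 2 alone, *Jun* stood at 4.32 UMIs per 10,000.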

How the data were processed

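The labels give 32 samples, 16 pools each sequenced in 2 runs, prepared with the Single Cell 3′ v2 kit. The authors aligned and counted reads with Cell Ranger 5.0.0 against mm10 (GRCm38) and deposited, per sample, a matrix of raw UMI counts per gene for the barcodes called cells. Run 1 was used, since the runs share 84.5 to 99.8% of a pool's barcodes and are not replicates. The annotation release behind the counts is not given in the sources used here. The members and gene lists were chosen with earlier results of these data known. Barcodes were kept with 400 to 6200 genes and with UMI shares of up to 10% for mitochondrial, 20% for *Rpl* and 15% for *Rps* genes (88909 of 107853), and 5003 (5.63%) were removed as doublets, the highest scores against 2 simulated doublets per droplet, 0.8% per 1000 barcodes.

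Cells were scored for 12 classes from their markers, and the leading class needed a score of at least 0.3, a lead of 0.1 and 3 detected markers. These limits were set after the data were seen. Sums per pool and class of at least 20 cells were tested with edgeR 4.0.16 (R 4.3.3; filterByExpr, TMM, quasi-likelihood, pool as a block, adjusted p at most 0.05). Tested on simulated data with 200 genes changed 2-fold, evenly up and down, 92.6 to 99.4% of changed genes were recovered with 11 or 16 pools and 5.08% with 2 pools. False genes made up at most 6.75% of those called. The simulation changed far fewer genes than the real comparisons call, so it does not tell how the calls behave under such broad differences. The pool pairs the classes, which come from the same library. Deviations from the class means correlated in every pool of the comparisons with 16 pools (lowest 0.214). In the granulocyte-like comparison the median was 0.158 and the lowest 0.0252. Named genes were all members, at most 2 called genes per list and direction, and the 3 genes most like each member. One gene that this rule names is not reported here. DESeq2 1.42.0 and the other settings served as alternatives.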

Additional observations from a re-analysis of the deposited data

Results flagged for a closer look

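In classes with 4 to 10 pools, the level of *Fosl1* in T-cell-like cells of pool 6 stood apart from the rest, at 0.0138 UMIs per 10,000 against 0 in the other 3 pools; it rests on 1 UMI, and chance flags about 1 in 20 groups (30 were examined). Droplets above the mitochondrial limit of 10%, which no comparison uses, had more *Egr1* than the kept cells of the same pools, 3.99 ± 0.815 against 2.16 ± 0.508 UMIs per 10,000 (SD, n = 16 pools), in 16 of 16 pools. They also had more *Fosl2*, 1.42 ± 0.241 against 0.948 ± 0.138, in 16 of 16 pools. *Fosb* was higher there in 14 of 16 pools (2.07 against 1.57), *Ier2* in 12, *Nr4a1* in 11 and *Jun* in 10. Lower there were *Fos* at 4.29 against 6.02 and *Junb* at 8.91 against 10.9 in 16 of 16 pools each, and *Jund* at 3.54 against 4.47 and *Fosl1* at 0.151 against 0.184, which were higher in 1 and 2 of 16 pools. These 9542 droplets were not assigned to classes, and the part of their cell types in these differences was not tested.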

How the results depend on the processing

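Over the settings tried the number of members called was 7 to 9 (osteoblast-like), 5 to 9 (osteocyte-like), 9 or 10 (MALP-like), 8 (macrophage-like), 4 to 7 (osteoclast-like) and 4 to 9 (granulocyte-like). Leaving out each pool in turn gave 9, 10, 8 and 6 for the comparisons with 16 or 11 pools, and 6 to 8 for osteocyte-like cells. The replicate block mattered in the last: without it 5 members were called in place of 8, and elsewhere the calls of *Jund* (MALP-like), *Fos* (osteoclast-like), *Egr1* and *Nr4a1* (granulocyte-like) were lost. Scaling by total counts and osteoclast-like pools of at least 5 cells were settings added after the data were seen. So was leaving out pools 1 and 2, or pools 1, 2, 17 and 18. Scaling by total counts reversed *Fosl2* (-0.0096) and *Hspa1a* (-0.15) in osteoblast-like cells and *Fosl2* (-0.52), *Jun* (-0.44), *Jund* (-0.35) and *Dnaja1* (-0.053) in granulocyte-like cells. The share of all calls that were higher became 23.4% in place of 48.1% and 22.6% in place of 47.6% in these comparisons, and 72.4% in place of 49.9% in MALP-like cells. DESeq2 called 1240 genes in place of 2776 in osteoclast-like cells.

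For members moving together between LMP-like and osteoblast-like cells, 10 passed, 6 with a mitochondrial limit of 5%, 6 without pools 1 and 2, 5 without pools 1, 2, 17 and 18 (*Fosl2* at r = -0.017), and 6 to 10 without single pools (6 without pool 2 and 6 without pool 4). Between LMP-like and macrophage-like cells 2 passed (*Ier2* and *Jund*), 3 without pools 1 and 2, and 2 or 3 without single pools. Without pools 1, 2, 17 and 18 neither *Ier2* nor *Jund* passed, and 1 other member did, at r = 0.78, which 8.30% of all genes reached. All 60 levels moved by less than 1 SD under 5 settings. The class share exceeded the pool share for all 10 members in the 10 settings and without any single pool. In the main setting this also held for most genes. However, 9 of 20 shares moved without pools 1 and 2 and 12 of 20 without pools 1, 2, 17 and 18. No pool could be left out of the osteoclast-like comparison, which has 2. Shares of cells with several members depend on depth: without thinning and thinned to 2000 UMIs they were 87.4 and 49.1% (LMP-like), 84.2 and 51.1% (osteoblast-like), 85.9 and 53.9% (osteocyte-like), 91.1 and 72.5% (MALP-like) and 51.6 and 26.2% (macrophage-like), and 22.6% without thinning (granulocyte-like). The causes were not tested.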
